A study of Mus musculus with 8 samples.

Results

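The tubulin isotypes, the alternative alpha and beta subunits of microtubules, were examined in brown adipose tissue (BAT) of 8-week-old wild-type (WT) and obese db/db mice. The list held 10 genes of the 31053 in the count table. They are the alpha isotypes Tuba1a, Tuba1b, Tuba1c and Tuba4a and the beta isotypes Tubb2a, Tubb2b, Tubb3, Tubb4b, Tubb5 and Tubb6. The family was taken up because Tuba1a rose between these genotypes, and the question was how far the rise was shared, so the members were chosen by values of the db/db against WT contrast itself. For that reason the members' differences are given as a description and no p-value is printed for them, and where a member is said to be past the threshold of the fit, this describes the same contrast and tests nothing. Of the 10 members, 9 passed the filter on low counts and 1, Tubb3, did not.

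Both groups were labelled C57BL6/J, and each held 4 libraries of bulk RNA-seq. The WT mice were C57BL6/J animals and the db/db mice B6.BKS(D)-Leprdb/J animals. The db/db mice were bought from 1 supplier, and the study's text names that supplier and also another for WT mice, so that supplier and genotype may not be separable. All mice were male and were fasted before the tissue was taken. db/db mice lack the signalling form of the leptin receptor throughout the body, which leads to overeating and obesity. The study also reports impaired fasting glycaemia in them at this age, so the tissue difference combines receptor loss, obesity and altered glycaemia. The labels give the cell type as "Stromal Vascular Fraction", the cells left once mature adipocytes are removed. Markers of mature adipocytes were high nonetheless. Adipoq stood at 1534 ± 240 CPM (counts scaled to library size) in WT and 1909 ± 185 in db/db, and Ucp1, the uncoupling protein of brown adipocytes, at 2248 ± 387 and 1429 ± 457 (SD, n = 4 each). The libraries are therefore called BAT here, as the tissue label has it.

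Microtubules are hollow polymers of alpha and beta tubulin heterodimers that carry transport, organise the cell interior and build the mitotic spindle. Each subunit is encoded by several genes whose products differ most in the acidic tail at the end of the protein, where enzymes add and remove amino acids and where motors and associated proteins bind. Tuba1a, Tubb2a, Tubb2b and Tubb3 are best known from developing neurons, whereas Tuba1b, Tubb4b and Tubb5 are widely expressed.

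The alpha isotypes are close in coding sequence. Over the whole coding sequence Tuba1a shared 98.3% of aligned bases with Tuba1b, 97.1% with Tuba1c, 84.8% with Tuba4a and 78.8% with Tuba8. These values came from alignments of the GENCODE M21 transcripts (mm10), and Tuba8 is an alpha isotype outside the list. Pairs of beta members shared 80.2% to 96.5%.

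This likeness bears on the counts. Of the 75-base windows of the coding sequence, the read length used, 24.2% were found at no other annotated locus for Tuba1a, 9.23% for Tuba1b and 15.1% for Tuba1c, against 100% for Tuba4a, Tubb3, Tubb5 and Tubb6. The values were 47.3% for Tubb2a, 46.2% for Tubb2b and 54.3% for Tubb4b. Beyond the stop codon every window of Tuba1a and Tuba1c was unique, and 36.1% of those of Tuba1b were. How reads that match several loci were counted is not given in the sources used here. The levels of Tuba1a, Tuba1b, Tuba1c, Tubb2a, Tubb2b and Tubb4b relative to other genes are therefore uncertain. Actg1, a cytoplasmic actin, had 3.901% unique coding windows but 100% beyond the stop codon, and held 0 to 3 counts in each library, so that unique windows alone do not tell how a gene was counted. Reads of one Tuba1 gene that were counted for another could also change the differences between the genotypes of Tuba1a, Tuba1b and Tuba1c. Their shares and ratios could change with them. The same holds for Tubb2a and Tubb2b, and none of this was tested.

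The 3 Tuba1 genes lie together on chromosome 15 (mm10), Tuba1b at 98931425 to 98934565 and Tuba1a at 98949837 to 98953703 on the minus strand and Tuba1c at 99029891 to 99038110 on the plus strand. Tubb2a (chromosome 13, 34074274 to 34078007) and Tubb2b (34126748 to 34130466) are neighbours on the minus strand as well. Exons of Tuba1a and Tuba1b overlap the annotated gene Gm49450 on the same strand, which was at 0 counts in all 8 libraries. Exons of Tuba4a overlap Stk16 on the other strand over 37.3% of their length, and whether counting used strand is not given, so part of its count may belong to Stk16. The same limit holds for smaller overlaps of Tuba8 with Gm15856 (16.3%), Tubb4b with Fam166a (5.795%) and Tuba1b with Gm41396 (4.64%).

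Total counts lay between 2374079 and 2615009 per WT library and between 2382722 and 3240074 per db/db library. The smallest level taken as detectable, 3 counts, was 0.902 to 1.33 CPM. Across all genes, 2568 of 9264 tested passed an adjusted p of 0.05 in edgeR's quasi-likelihood test (Benjamini-Hochberg), which is 27.7%. Of all genes tested 15.8% were called higher in db/db and 11.9% lower, and 15.3% had all db/db libraries above all WT libraries in CPM and 12.7% all below. The median log2 fold change over all genes was 0.01.

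Skeletal muscle markers (8 of 8 past the threshold) were higher in db/db and uneven between libraries. Their summed CPM lay between 335 and 1185 in the WT libraries and between 1757 and 8890 in the db/db libraries, of which replicate 1 was highest and replicate 3 came next with 4048. Macrophage markers (5 of 6 higher) summed to 107 to 139 CPM in WT and 499 to 863 in db/db, and fibroblast markers (5 of 5 higher) to 475 to 587 and 903 to 1889. The remaining macrophage marker went the other way, at a log2 fold change of -1.03, and was not past the threshold. Brown adipocyte markers (4 of 4 tested lower) summed to 8856 to 10510 and 3692 to 6736. Schwann cell markers (2 of 4 tested higher) summed to 119 to 206 and 364 to 569, smooth muscle and pericyte markers (2 of 4 tested higher) to 184 to 232 and 315 to 422, and endothelial markers (1 of 5 lower) to 340 to 411 and 245 to 294. Adipocyte markers (2 of 6 higher) summed to 8861 to 15740 and 14520 to 19500. Neuronal markers, none of which passed the filter, summed to at most 2.02 CPM in WT and 8.12 in db/db, with Prph and Th at 0 in all libraries. Cycling cell markers (1 of 2 tested higher) summed to 15.03 to 23.4 and 27.0 to 43.6 CPM, and T and B cell markers, none tested, to at most 3.38 and 6.92 with Cd79a at 0. The part of these cell types in the tubulin values below was not tested, and in bulk tissue a change in the number of cells cannot be told apart from a change in RNA per cell.

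Tuba1a had the largest log2 fold change of the family. Among the 9 members tested, 6 were past the threshold, all of them higher in db/db, and 3 were not, beside 15.8% of all genes called higher. Since this contrast chose the family, and since 1 of the 6, Tubb2b, passed the filter only through the db/db libraries, nothing is read from that share. In 5 members, again with Tubb2b, every db/db library lay above every WT library, beside 15.3% of all genes tested. The median log2 fold change of the 9 members was 1.10, and it ranged from -0.02 to 3.57.

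Tuba1a, the alpha isotype whose mutation disturbs neuronal migration in the developing brain, stood at 28.3, 20.7, 20.3 and 17.8 CPM in WT replicates 1 to 4. In db/db replicates 1 to 4 it stood at 374, 252, 207 and 202 CPM. The lowest db/db library was thus above the highest WT library by a wide margin, on 42 to 70 raw counts in WT and 467 to 1244 in db/db. The means were 21.8 ± 4.54 and 259 ± 80.3 CPM (SD, n = 4 each). The log2 fold change was 3.57 ± 0.22 (SE), an 11.9-fold difference, and ranked 61 of 9264 from the top. Leaving out db/db replicate 1, where muscle markers were highest, left it at 3.33, and with the mean score of the muscle markers (muscle score) as a covariate it was 3.20.

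Tuba1b, the most abundant isotype in both genotypes, stood at 170, 176, 185 and 175 CPM in WT and at 456, 329, 355 and 373 in db/db. The WT libraries were close to each other, and the genotypes did not overlap. The means were 176 ± 6.35 and 378 ± 54.8 CPM, and the log2 fold change was 1.10 ± 0.13. Tuba1c, a broadly expressed copy, stood at 17.0, 51.9, 41.0 and 35.7 CPM in WT and 101, 54.1, 50.5 and 85.2 in db/db. Here db/db replicate 3 lay below WT replicate 2, so that the genotypes overlapped, with a log2 fold change of 1.002 ± 0.27.

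Tuba4a, the isotype known for encoding no terminal tyrosine, did not follow. It stood at 37.6, 72.2, 63.9 and 81.5 CPM in WT and at 129, 37.5, 67.4 and 51.7 in db/db. Only db/db replicate 1 lay above the WT range, and the log2 fold change was 0.17 ± 0.30. Without db/db replicate 1 it was -0.30, without WT replicate 1 it was -0.04, and with the muscle score as a covariate it was -1.23 and passed the threshold as lower. The muscle score did not overlap between the genotypes, with a WT range of -1.39 to -0.11 and a db/db range of -0.02 to 1.58, which makes this covariate and genotype hard to separate.

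**Figure D1:**
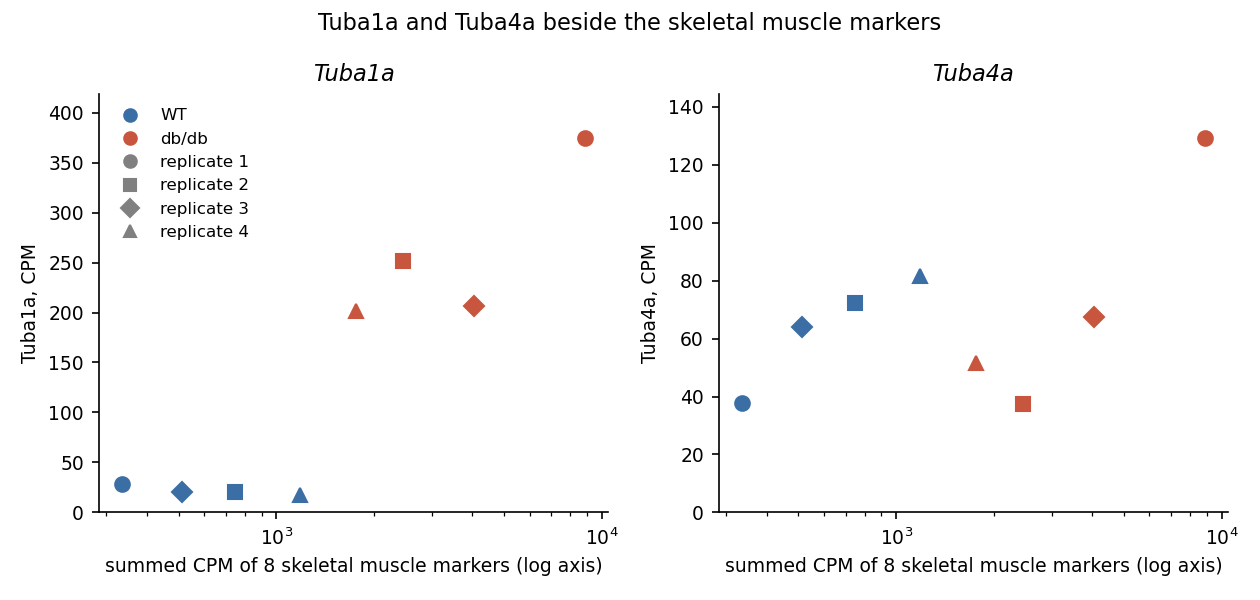
CPM of Tuba1a (left) and Tuba4a (right) against the summed CPM of 8 skeletal muscle markers on a log axis, with 1 point per library, WT in blue, db/db in red and the shape giving the replicate. Tuba1a separated by genotype, at 17.8 to 28.3 in WT against 202 to 374 in db/db, whereas the genotypes overlapped in Tuba4a. Both genes were highest in db/db replicate 1, the library with the highest marker sum of 8890, at 374 CPM for Tuba1a and 129 CPM for Tuba4a.

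Tubb2a, a class II beta tubulin abundant in brain, stood at 7.69, 5.06, 7.89 and 8.91 CPM in WT and at 29.5, 31.2, 30.1 and 28.6 in db/db. The genotypes did not overlap and the db/db libraries differed little. The means were 7.39 ± 1.64 and 29.9 ± 1.07 CPM (SD, n = 4 each), and the log2 fold change was 2.01 ± 0.22, also 2.01 without db/db replicate 1. Its counts were low, 12 to 21 in WT and 68 to 98 in db/db.

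Tubb2b, its close neighbour in sequence and position, was near the detection limit in WT, with 0, 2, 8 and 6 raw counts, and held 47, 30, 16 and 24 in db/db. It passed the filter through the db/db libraries alone, so that a member of this kind had to differ. In CPM the values were 0, 0.844, 3.01 and 2.55 against 14.1, 9.54, 7.09 and 8.93, with no overlap, and the log2 fold change was 2.598 ± 0.53. Tubb6, a class V beta tubulin, stood at 4.45, 3.798, 4.51 and 5.52 CPM in WT and 10.5, 13.4, 7.53 and 8.93 in db/db, again without overlap and with a log2 fold change of 1.15 ± 0.32 on 9 to 13 and 17 to 42 counts. With the muscle score as a covariate Tuba1c, Tubb2b and Tubb6 were no longer past the threshold, at log2 fold changes of 0.49, 1.85 and 1.104.

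The 2 widely expressed beta isotypes showed values close to each other in the genotypes. Tubb4b stood at 77.7, 89.9, 62.0 and 88.7 CPM in WT and 88.8, 82.1, 47.0 and 97.5 in db/db, a log2 fold change of -0.01 ± 0.19. Tubb5, the class I beta tubulin, stood at 88.6, 79.3, 74.8 and 91.7 CPM in WT and 88.1, 66.2, 73.6 and 101 in db/db, a log2 fold change of -0.02 ± 0.15. In both, the db/db range enclosed the WT range. Tubb3, the neuron-type beta tubulin used as a marker of nerve cells, was at 0 counts in all 8 libraries, which allows at most 0.902 to 1.33 CPM in each.

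**Figure D2:**
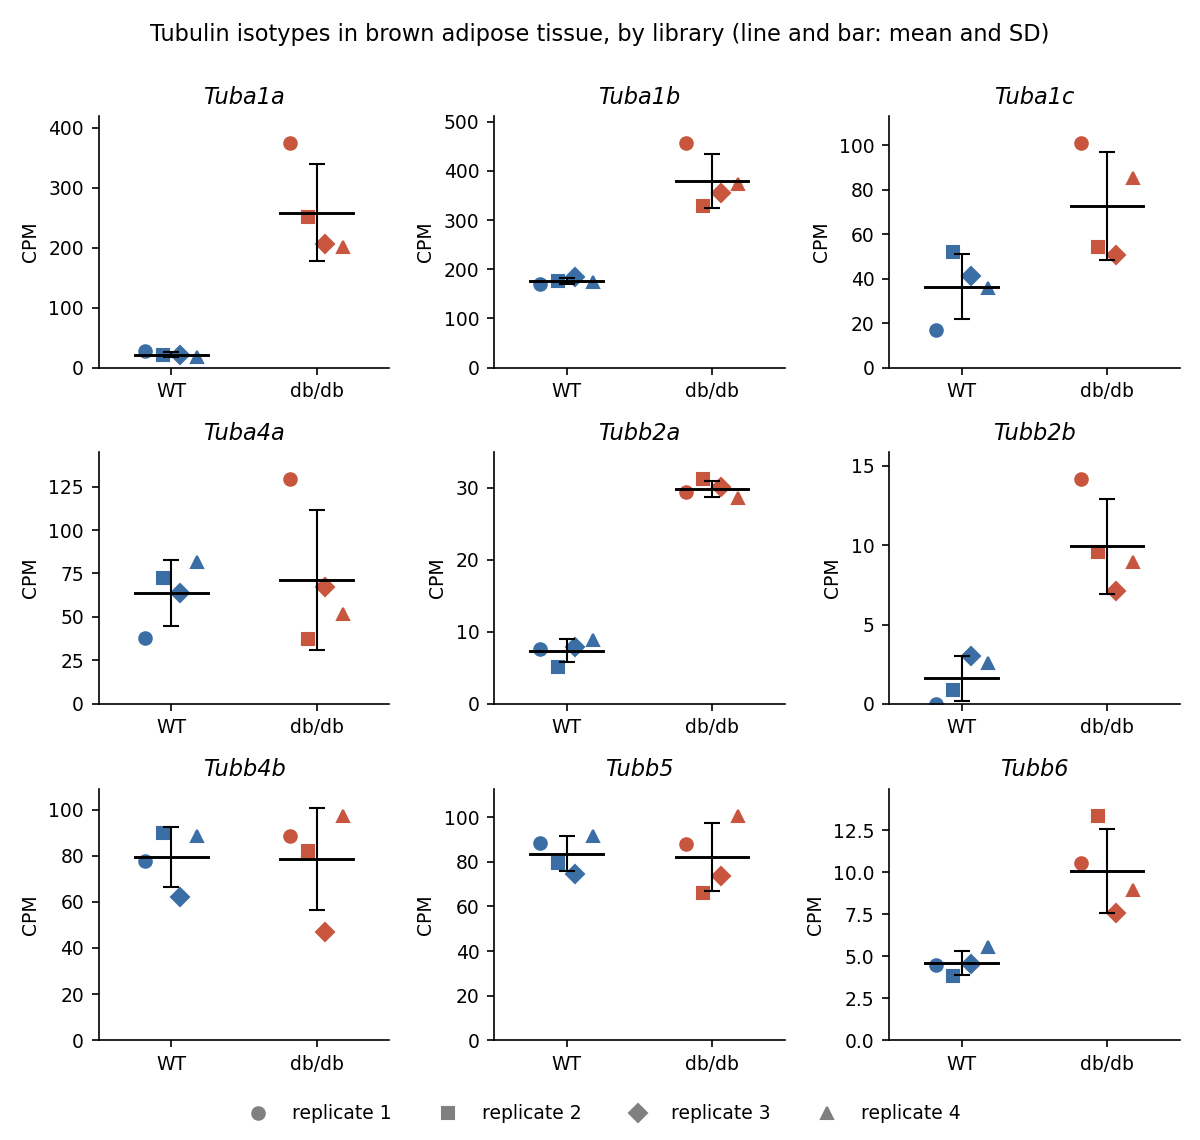
CPM of the 9 isotypes with counts (vertical axes, starting at 0 and scaled per gene) in WT (blue) and db/db (red), with 1 point per library, the shape giving the replicate and the line and bar the mean and SD (n = 4). The genotypes do not overlap for Tuba1a, Tuba1b, Tubb2a, Tubb2b and Tubb6, and overlap for Tuba1c, Tuba4a, Tubb4b and Tubb5.

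Summed over the 10 members, tubulin went from 475 ± 35.5 CPM in WT to 992 ± 205 in db/db (SD, n = 4 each), a ratio of 2.09. The alpha members went from 298 ± 31.0 to 781 ± 187 CPM, a ratio of 2.62, and without Tuba1a the other 3 alpha members went from 277 ± 35.3 to 522 ± 115. Of these 3, mean Tuba1b went from 176 to 378 CPM, Tuba1c from 36.38 to 72.65 and Tuba4a from 63.8 to 71.4. The beta members went from 177 ± 18.6 to 211 ± 35.1 CPM, and their values overlapped, at 179, 179, 152 and 197 CPM in WT against 231, 202, 165 and 245 in db/db. These sums leave out Tuba8, an alpha isotype outside the list, which went from 43.5 ± 11.5 to 13.7 ± 1.36 CPM. The ratio of summed alpha members to summed beta members was 1.42, 1.80, 2.04 and 1.57 in WT and 4.59, 3.33, 4.11 and 2.91 in db/db. No db/db library overlapped the WT range, with means of 1.70 ± 0.27 and 3.73 ± 0.76. Because the handling of reads shared by near-identical loci is not given, the ratio is not read as one of transcripts or of subunits.

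Within the alpha class, here the 4 members and Tuba8, Tuba1a supplied 9.56%, 5.63%, 6% and 4.87% of counts in WT. In db/db it supplied 34.8%, 36.7%, 29.9% and 27.8%. The 95% Wilson intervals, which cover counting error only, spanned 3.63% to 11.9% over the WT libraries and 25.8% to 38.8% over the db/db libraries. The mean share went up by 25.8 percentage points. Tuba1b held 51.9 ± 4.76% in WT and 48.3 ± 4.20% in db/db. The shares of Tuba4a (18.4 ± 4.05% and 8.58 ± 2.88%) and Tuba8 (12.7 ± 3.17% and 1.77 ± 0.30%) were lower in db/db, without overlap. The count of Tuba1a relative to that of Tuba1b was 0.12 ± 0.03 in WT and 0.68 ± 0.14 in db/db.

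Within the beta class Tubb2a made up 4.21 ± 0.99% of counts in WT and 14.5 ± 2.92% in db/db, and Tubb2b 0.93 ± 0.88% and 4.69 ± 1.05%. Tubb6 went from 2.59 ± 0.37% to 4.84 ± 1.25%. Tubb4b and Tubb5 together remained the bulk of the class, at 44.9 ± 3.98% and 47.4 ± 2.48% in WT and 36.8 ± 5.66% and 39.1 ± 5.01% in db/db (SD, n = 4 each).

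**Figure D3:**
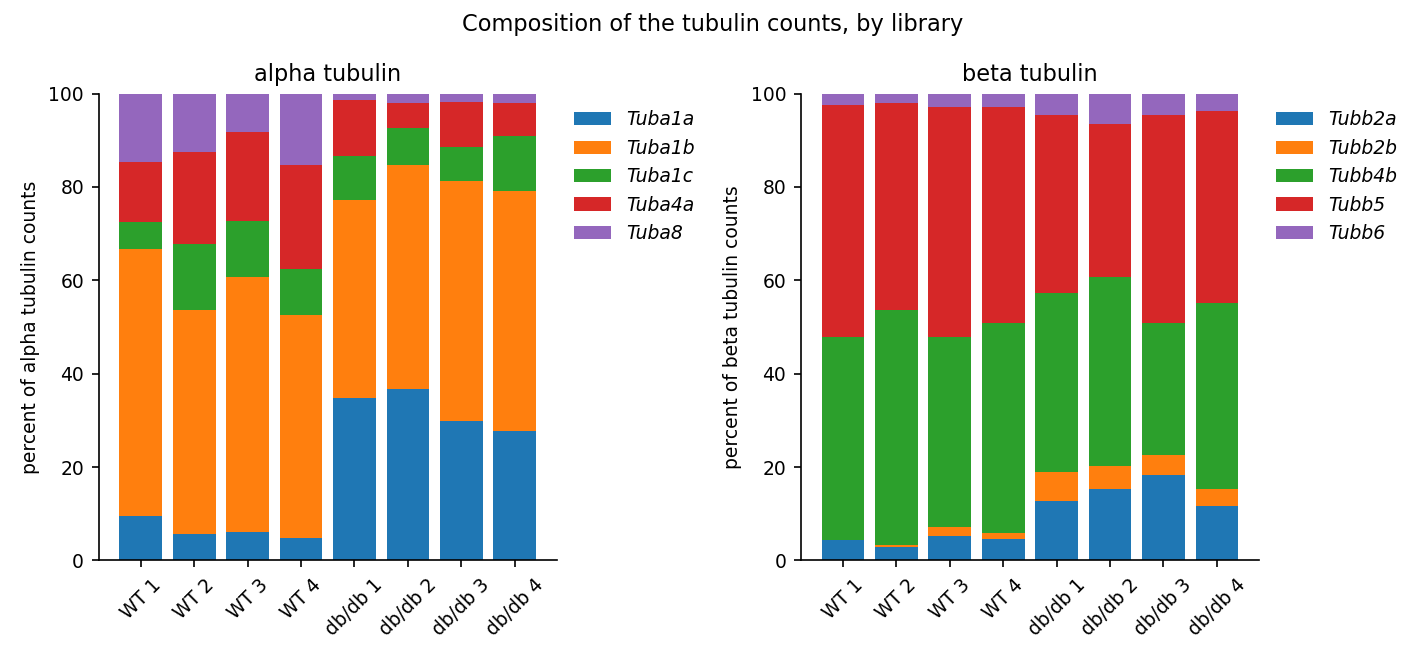
Percent of alpha tubulin counts (left) and beta tubulin counts (right) held by each isotype in each library, as stacked bars that add to 100. Tuba1a fills 4.87% to 9.56% of the alpha bars in WT and 27.8% to 36.7% in db/db, Tuba8 shrinks from 8.33% to 15.3% down to 1.37% to 2.05%, and Tubb2a and Tubb2b widen at the base of the beta bars.

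Ordered by CPM per kilobase of exon, the WT levels ran from Tuba1b (94.1 ± 3.39) through Tubb4b (38.1 ± 6.20), Tubb5 (25.1 ± 2.37), Tuba8 (19.2 ± 5.09), Tuba4a (17.2 ± 5.10), Tuba1c (15.9 ± 6.38) and Tuba1a (12.1 ± 2.52) to Tubb2a (4.59 ± 1.02), Tubb6 (1.88 ± 0.29) and Tubb2b (0.70 ± 0.62). Neighbours from Tubb5 to Tuba1a overlapped in range. In db/db Tuba1a moved from the seventh place to the second, at 144 ± 44.5 CPM per kilobase, behind Tuba1b at 202 ± 29.2, and the ranges of these 2 overlapped. Tubb4b (37.8 ± 10.6), Tuba1c (31.8 ± 10.7), Tubb5 (24.7 ± 4.63), Tuba4a (19.3 ± 10.9) and Tubb2a (18.6 ± 0.66) followed, each overlapping the next, and Tuba8 (6.07 ± 0.60), Tubb2b (4.33 ± 1.31) and Tubb6 (4.14 ± 1.03) came last. Whether reads covered whole transcripts is not given in the sources used here, and the order depends on it.

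Among the 10 tubulin genes outside the list, which the rule did not use, 2 were tested and both fell, beside 11.9% of all genes called lower. Tuba8, an alpha isotype first described in muscle and testis, stood at 43.7, 46.0, 28.2 and 56.0 CPM in WT and at 14.7, 13.4, 11.97 and 14.9 in db/db. All db/db libraries lay below all WT libraries, with a log2 fold change of -1.65 ± 0.22 (edgeR, adjusted p = 2.3e-05), a 3.14-fold lower level. With the muscle score as a covariate it was -1.89 (edgeR, adjusted p = 0.0018). Tubg1, the gamma tubulin from which microtubules are nucleated, went from 45.4 ± 4.53 to 24.4 ± 5.58 CPM (SD, n = 4 each), without overlap and with a log2 fold change of -0.89 ± 0.19 (edgeR, adjusted p = 0.0015). It was -0.93 with the muscle score as a covariate and not past the threshold (adjusted p = 0.087). Tuba3a, Tuba3b, Tubal3 and Tubb1 were at 0 in all libraries, and Tubb4a, Tubg2, Tubd1 and Tube1 held at most 12 counts in any.

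**Figure D4:**
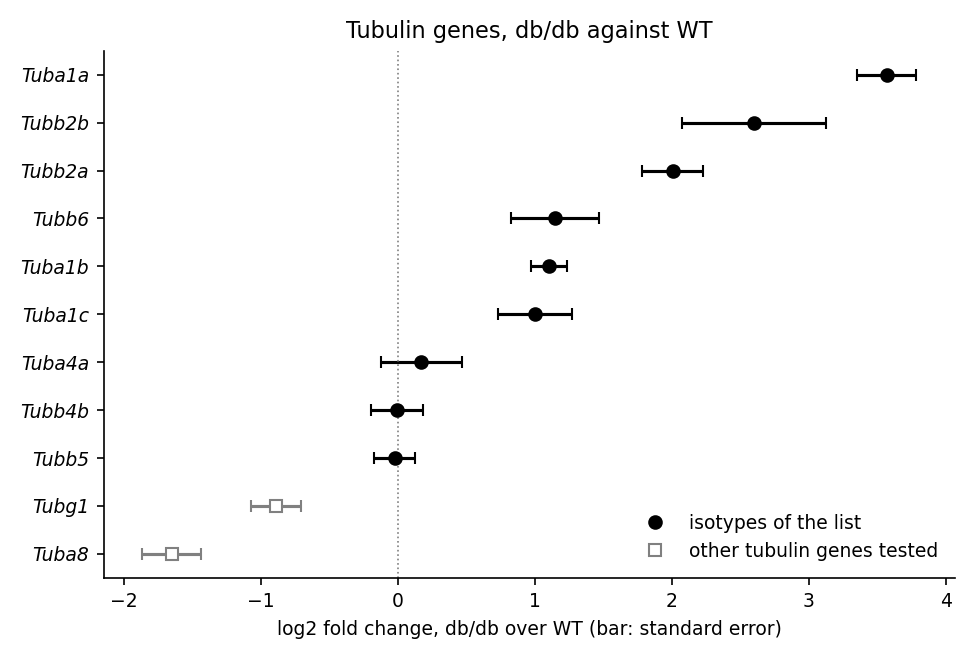
Log2 fold change of db/db over WT from the edgeR fit (horizontal axis, bars giving the standard error) for the 9 isotypes tested (filled circles) and the 2 other tubulin genes tested (open squares). Tuba1a lies at 3.57, 5 further isotypes between 1.002 and 2.598, Tuba4a, Tubb4b and Tubb5 near 0, and Tubg1 and Tuba8 below it.

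The promoters of Tuba1a, of Tubb2a, a beta isotype without overlap between the genotypes, and of Tuba8, which fell, are shown because their values separated the genotypes in opposite directions. Each holds 250 bases before and 50 after the start in RefSeq (GRCm38.p6), 5′ to 3′ on the strand of the gene, with capitals at matches to CCAAT (the CCAAT box), TATAAA (the TATA box) or GGGCGG (the GC box) on either strand; none of these matches overlaps another.
Tuba1a, chr15:98953452-98953751, minus strand: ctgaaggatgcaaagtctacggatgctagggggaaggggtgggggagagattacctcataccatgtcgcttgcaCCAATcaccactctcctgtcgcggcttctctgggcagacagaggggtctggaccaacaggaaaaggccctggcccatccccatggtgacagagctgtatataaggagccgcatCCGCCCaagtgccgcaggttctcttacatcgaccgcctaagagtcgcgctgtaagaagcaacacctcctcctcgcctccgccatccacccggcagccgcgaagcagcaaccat
Tubb2a, chr13:34077959-34078258, minus strand: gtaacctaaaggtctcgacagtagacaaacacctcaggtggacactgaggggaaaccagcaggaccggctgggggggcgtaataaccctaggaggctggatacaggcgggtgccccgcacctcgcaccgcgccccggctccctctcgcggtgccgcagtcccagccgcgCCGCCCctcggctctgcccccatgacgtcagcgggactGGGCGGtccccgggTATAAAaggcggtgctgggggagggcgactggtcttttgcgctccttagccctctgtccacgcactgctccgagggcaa
Tuba8, chr6:121210484-121210783, plus strand: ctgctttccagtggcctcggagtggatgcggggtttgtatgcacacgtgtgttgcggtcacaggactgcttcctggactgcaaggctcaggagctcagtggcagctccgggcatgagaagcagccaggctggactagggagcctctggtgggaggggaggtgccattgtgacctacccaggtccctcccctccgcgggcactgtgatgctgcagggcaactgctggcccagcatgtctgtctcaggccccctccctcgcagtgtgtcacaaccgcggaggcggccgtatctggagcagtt
The Tuba1a window held 1 match to CCAAT and 1 to GGGCGG, the Tubb2a window 1 to TATAAA and 2 to GGGCGG, and the Tuba8 window none of the 3. Of the 10 members 8 had an entry, of which 5 held CCAAT, 2 held TATAAA and 7 held GGGCGG. Among 32851 promoters of the same length these letters occurred in 37.4%, 13.6% and 35.7%. A match is a description of the letters only.

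Chaperonins, prefoldins and tubulin cofactors fold tubulin and join it into heterodimers. Of 22 listed genes, 20 were tested, 1 rose and 2 fell, beside 27.7% of all genes called, with a median log2 fold change of -0.01. Tbcd, the cofactor that handles beta tubulin, rose from 13.0 ± 2.31 to 27.8 ± 2.36 CPM (log2 fold change 1.09 ± 0.20, edgeR adjusted p = 5.9e-04). Cct4, a subunit of the chaperonin that folds tubulin and actin, fell from 124 ± 19.1 to 74.9 ± 11.1 CPM (-0.73 ± 0.15, adjusted p = 0.0016). Arl2, a small GTPase of the tubulin cofactor complex, fell from 67.9 ± 14.9 to 44.8 ± 8.85 CPM (-0.61 ± 0.19, adjusted p = 0.022), with overlap between the genotypes (adjusted p = 0.057 to 0.072 without WT replicate 1 or 4 or db/db replicate 2, and 0.50 at a log2 fold change of -0.44 with the muscle score as a covariate). Of the 20 listed enzymes that modify tubulin, 11 were tested, and beside the same 27.7% of all genes 1 was called. Tpgs1, of the polyglutamylase complex, rose from 10.2 ± 0.39 to 16.7 ± 2.16 CPM (0.71 ± 0.23, adjusted p = 0.027), a call that was lost without WT replicate 1, 2, 3 or 4 or db/db replicate 1 (adjusted p = 0.051 to 0.088) and with the muscle score as a covariate (0.50, adjusted p = 0.56).

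Microtubule-associated proteins stabilise, link or sever the polymers. Of 39 listed genes, 29 were tested, 9 rose and 3 fell, beside 15.8% of all genes called higher and 11.9% called lower, with a median log2 fold change of 0.27. Map7d3, of the family that recruits kinesin-1 to microtubules, rose from 2.68 ± 1.56 to 12.8 ± 2.44 CPM (log2 fold change 2.22 ± 0.38), on 3 to 13 raw counts in WT and 22 to 52 in db/db. It passed the filter through the 4 db/db libraries and 1 WT library, which favours a rise, and no p-value is given for it. Its relative Map7d1 rose from 14.0 ± 1.74 to 34.9 ± 2.29 CPM (1.31 ± 0.19, edgeR adjusted p = 4.8e-05). Map1b, a stabiliser best known from axons, rose from 6.93 ± 1.89 to 23.1 ± 7.24 CPM (1.74 ± 0.28, adjusted p = 1.6e-04), and Gas2l1, which links actin to microtubules, from 13.9 ± 2.46 to 32.6 ± 3.85 CPM (1.22 ± 0.20). With the muscle score as a covariate the log2 fold changes of Map1b and Gas2l1 were 1.24 and 0.90 and their calls were lost (adjusted p = 0.11 and 0.13). The 3 that fell, named after their values were seen, were Tppp, a tubulin polymerisation-promoting protein (-1.18 ± 0.24), the severing enzyme Spast (-1.03 ± 0.21) and the minus-end binder Camsap2 (-0.57 ± 0.18). The call of Camsap2 was lost without WT replicate 1 or 4 or db/db replicate 1 or 2 (adjusted p = 0.055 to 0.069). Tppp and Camsap2 were at -0.69 and -0.26 and not past the threshold with the muscle score as a covariate (adjusted p = 0.35 and 0.70).

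Kinesins and dynein move cargo along microtubules. Of 33 listed genes of these motors and their partners, 27 were tested, 6 rose and 1 fell, a share close to the 27.7% called over all genes, with a median log2 fold change of 0.23. Dynll1, a dynein light chain, rose from 17.2 ± 4.20 to 36.4 ± 6.12 CPM (1.08 ± 0.21, edgeR adjusted p = 7.4e-04). Kif3a and Kifap3, parts of the kinesin-2 motor, rose by 0.86 ± 0.19 and 0.66 ± 0.18 on the log2 scale (adjusted p = 0.0023 and 0.011). The values were 1.08 and 0.75 with the muscle score as a covariate, and neither was past the threshold (adjusted p = 0.059 and 0.21). Dctn4, a dynactin subunit, fell from 79.8 ± 10.5 to 50.8 ± 2.72 CPM (-0.65 ± 0.14, adjusted p = 0.0023).

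Actin and intermediate filaments are the other cytoskeletal systems. Of 18 listed genes, 16 were tested and 11 were called higher, beside 15.8% of all genes, and 1 of the 11, Coro1a, passed the filter through the db/db libraries alone. The list had a median log2 fold change of 0.93, and the lowest of the 16 was 0.10. Vim, the intermediate filament protein of mesenchymal cells, rose from 331 ± 51.4 to 1237 ± 178 CPM (1.90 ± 0.15, adjusted p = 8.5e-08). Coro1a, an actin regulator of blood-derived cells, rose from 1.23 ± 0.50 to 10.7 ± 6.17 CPM (log2 fold change 3.10 ± 0.50). It held 2 to 4 raw counts in WT, so that after that filter it had to differ, and no p-value is given for it. Tmsb10, a thymosin that binds actin monomers, rose from 8.44 ± 2.67 to 27.8 ± 4.85 CPM (1.71 ± 0.25), and the severing protein Gsn from 850 ± 258 to 2293 ± 618 CPM (1.43 ± 0.21). With the muscle score as a covariate the log2 fold change of Gsn was 1.10 and no longer past the threshold (adjusted p = 0.068), and that of Coro1a was 2.155 and not past it either. In that fit the calls numbered 4 in this list, 4 among the microtubule-associated proteins and 2 among the motors, and over all genes 6.81% were called in place of 27.7%.

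**Figure D5:**
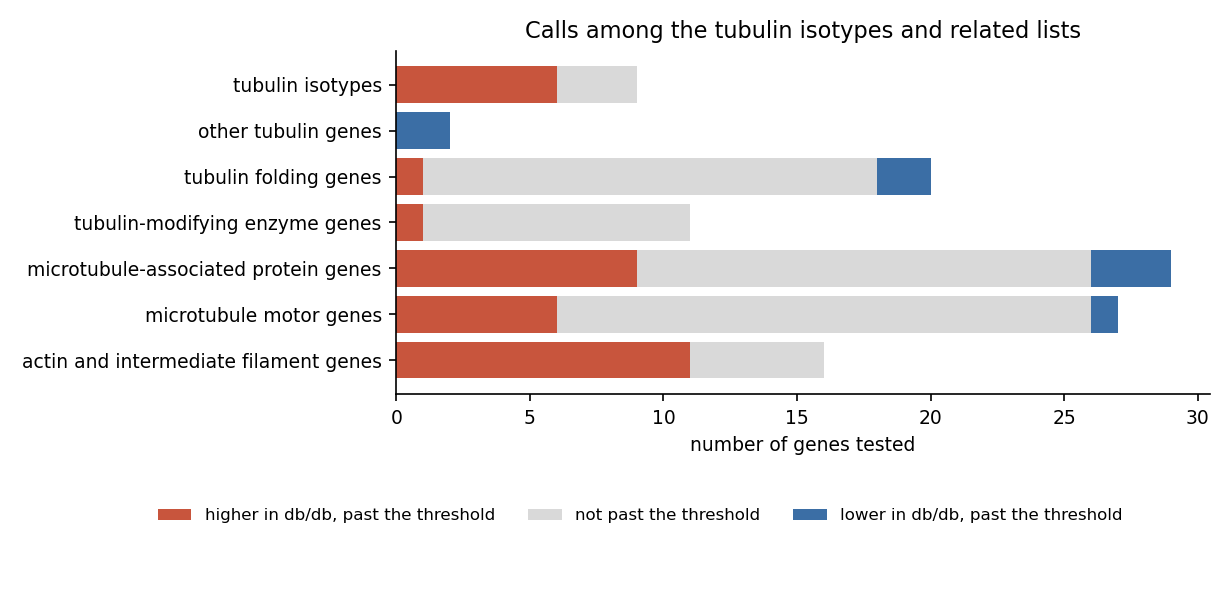
Number of genes tested in each list (horizontal bars), divided into those past an adjusted p of 0.05 and higher (red) or lower (blue) in db/db and those not past it (grey). The isotypes have 6 of 9 higher and none lower, the other tubulin genes 2 of 2 lower, and the folding genes 17 of 20 not past the threshold. Over all genes tested 15.8% were called higher and 11.9% lower. The isotypes were chosen by this same contrast, so nothing is read from their count.

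The genes most like Tuba1a were sought by the mean absolute difference between log2 CPM profiles over the 8 libraries, each centred on its mean. This measure mostly reflects the db/db against WT contrast that chose the family. It is a description and no test of shared variation between libraries. Among 9254 other genes the smallest differences were those of Cilp (0.23), Anxa1 (0.25), Ccn5 (0.26), 1700047G03Rik (0.26) and Mettl21c (0.27). Cilp, Ccn5 and Mettl21c were at 0 counts in every WT library and at 16 to 76 in db/db, and 1700047G03Rik held at most 1 count in a WT library, so that their likeness rests on the prior count of 2 that enters the log. Anxa1, a phospholipid-binding annexin, held 4 to 6 counts in WT and 62 to 164 in db/db, so that its likeness depends in part on the prior count too. Among the 7326 genes with at least 10 counts in every library, a limit chosen after seeing these values, the nearest were Gpnmb (0.28), a glycoprotein of lipid-laden macrophages, Mfge8 (0.30), Fhl1 (0.30), Adamts5 (0.31) and Npr3 (0.31). Gpnmb ran from 4.25 to 10.2 CPM in WT and 56.3 to 90.6 in db/db, Mfge8, which bridges apoptotic cells to phagocytes, from 120 to 182 and 990 to 1717, and Fhl1, a LIM protein abundant in skeletal muscle, from 16.9 to 30.0 and 209 to 391. Adamts5 ran from 7.175 to 14.65 CPM in WT and 56.2 to 143 in db/db, and Npr3 from 13.5 to 28.3 and 225 to 272. Of the tubulin members, Tubb2a (0.78) and Tubb2b (0.85) were nearest to Tuba1a and Tubb4b (1.78) was farthest. Tubb2b held 0 to 8 counts in WT, so that its value too rests on the prior count.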

How the data were processed

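RNA from BAT of 4 WT and 4 db/db mice was profiled by bulk RNA-seq. The authors trimmed single-end reads of 75 bases with bbduk, aligned them to mm10 by STAR and made gene counts under Ensembl identifiers by HTSeq-count, per the study's methods, whereas the submitters' processing notes name Trimmomatic, HISAT2, DESeq2 and GRCm38. The authors deposited raw counts, and also normalized log2 values. The use of strand, of molecular identifiers and of reads that match several loci is not given in the sources used here, so PCR copies may be included. The labels number the samples within a genotype and do not name animals, so that p-values measure the spread between these samples.

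Of 31053 identifiers 31011 were matched to GENCODE M21 on mm10. Genes were filtered by filterByExpr (minimum count 10, minimum total 15), scaled by TMM and tested with edgeR 4.0.16 in R 4.3.3 on the counts, with genotype as the only term. CPM are counts over the total of the tested genes times the TMM factor. Intervals are 95% Wilson intervals, and intervals and floors cover counting error only. The members and gene lists were chosen with earlier results of these data known. Of each list the 4 genes with the largest changes past the threshold and at least 5 CPM in the higher genotype were named, and the 5 genes most like Tuba1a. The chaperonin gene Cct6a was not analysed here, and some coding sequences are not reported here. The skeletal muscle score is the mean z-score of log2 CPM over the 8 markers. Alternatives were DESeq2 1.42.0, limma 3.58.1 (voom, and on the deposited log2 values), other scalings and filters, the muscle score as a covariate, a block for the replicate number and the omission of each library.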

Additional observations from a re-analysis of the deposited data

Results flagged for a closer look

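Each set of 4 libraries was searched for 1 library far from the other 3, over the isotypes, their shares and the other genes named. Of 88 sets 4 were marked, and chance marks about 4.4, so no pattern is read from them. None was an isotype. Kifap3 stood at 25.1 CPM in WT replicate 1, against 19.9 to 20.3 in the other WT libraries. Vim stood at 1500.0 CPM in db/db replicate 2, against 1124 to 1186. Mettl21c, a skeletal muscle methyltransferase, stood at 22.9 CPM in db/db replicate 1, the library with the highest muscle marker sum, against 6.999 to 8.87. 1700047G03Rik stood at 0.376 CPM in WT replicate 3, which is 1 count, against 0 in the others.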

How the results depend on the processing

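The count of members past the threshold was 6 of 9 under DESeq2, limma-voom, limma on the deposited log2 values, the other scalings, no filter and the omission of any 1 library, and 4 of 7 where every library had to hold 10 counts, which leaves Tubb2b and Tubb6 out. Among all genes, 2527 of 9264 passed under DESeq2, 2018 of 7333 under that 10-count filter and 2236 to 2483 without 1 library. As above, nothing is read from the members' share. With the muscle score as a covariate the count of members was 4, 3 higher and 1, Tuba4a, lower. Over all genes that fit made 631 calls in place of 2568, 458 higher and 173 lower. Under it the marker lists held 9 calls in place of 30, the folding genes 2 in place of 3, the other tubulin genes 1 in place of 2, the modifying enzymes 0 in place of 1 (0 as well without the filter), the microtubule-associated proteins 4 in place of 12, the motors 2 in place of 7 and the actin and intermediate filament genes 4 in place of 11. The score differs between the genotypes without overlap, and the cause of these differences was not tested. Leaving out 1 library gave 0 to 1 calls among the modifying enzymes. The log2 ratio of the summed members was 0.91 to 1.13 without 1 library, and 0.91 without db/db replicate 1. The rise in the Tuba1a share was 24.3 to 27.3 points. Of 97 comparisons of members' log2 fold changes with the other alternatives, 94 moved by less than the spread between replicates. The others were Tuba1a at 3.20, Tuba1b at 0.89 and Tuba4a at -1.23, all with the muscle score. Of 21 other genes named, 0 changed direction, and calls were lost in 24 of 397 comparisons, 12 of them without 1 library (Arl2, Tpgs1 and Camsap2). Replicate numbers 1 to 4 occur in both genotypes but belong to different animals. Deviations of same-numbered libraries correlated at -0.08 to 0.05, and with the replicate block 6 members and 2557 genes passed. Depth limits Tubb2b in WT and Tubb3 in all libraries, at 0 to 8 counts, and Tubb6 to 9 to 13 counts in WT.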
